A study of Mus musculus with 4 samples.

Results

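Pulmonary surfactant genes and other genes that mark alveolar type 2 cells were examined as hosts of circular RNAs (circRNAs) in developing mouse lung. The members are the 6 genes Sftpc, Sftpb, Lamp3, Slc34a2, Atp8a1 and Etv5, and their circles are all listed circRNAs whose deposited Ensembl host identifier belongs to one of them. This gave 25 of the 13499 distinct circRNAs and 6 of the 4647 host genes, with 1291 of 121689 listed junction reads. The tissue was whole lung of C57BL/6 mice, with no other genotype or treatment in the labels. Each of 4 stages has 1 library. The pseudoglandular lung was taken at embryonic day 14.5, the canalicular lung at embryonic day 16.5, the terminal sac lung at embryonic day 18.5 and the alveolar lung from newborns at day 7.5. Whether animals were pooled is not stated in the labels. Stages have no replicates, so no p-value is given and every comparison is between libraries. Intervals are 95% intervals that cover the counting error of reads only, and amplified reads are not independent molecules.

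A circRNA forms when a downstream splice donor joins an upstream acceptor, and reads across that back-splice (junction reads) count it. Reads that run linearly across the same ends (non-junction reads) count the linear transcript there. The junction ratio is the circular share of both kinds of read, with each junction read weighted by 2 because a linear transcript is counted at both ends. Alveolar type 2 cells are the lung epithelial cells that make surfactant, the mixture of phospholipids and proteins that lowers surface tension at the air interface, and they store it in lamellar bodies. Sftpb and Sftpc encode the hydrophobic surfactant proteins B and C, and Lamp3 encodes a membrane glycoprotein of lamellar bodies. Slc34a2 encodes the sodium-phosphate cotransporter of the type 2 cell surface, Atp8a1 a flippase that moves aminophospholipids across membranes, and Etv5 an ETS transcription factor downstream of FGF signalling in lung epithelium.

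The junction sequences are shown first because they separate the members into kinds of circle. They were read from the GENCODE M21 transcripts on the sense strand, 5′ to 3′, as the end of the circle followed by its start. In the Lamp3, Etv5 and Atp8a1 lines lower case is the end of the last exon in the circle and capitals are the beginning of its first exon.
Lamp3 exons 2 to 5: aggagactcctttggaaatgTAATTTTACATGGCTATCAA
Lamp3 exons 4 to 5: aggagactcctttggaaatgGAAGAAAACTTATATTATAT
Etv5 exons 6 to 7: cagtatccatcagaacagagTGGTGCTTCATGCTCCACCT
Atp8a1 exons 25 to 29: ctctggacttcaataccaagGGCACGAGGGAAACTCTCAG
Both ends of these 4 circles are annotated exon boundaries, and the pair from Lamp3 uses the same donor at the end of exon 5 with different acceptors.

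The most abundant circle of Sftpc joins the end of exon 3 to a point inside exon 1. It lies at chr14:70522154-70524022 on the minus strand (build mm10), leaves out the first 59 of the 80 bases of exon 1, and is 303 coding bases long once introns are removed. Its junction is shown above the linear junction of exons 3 and 4, with the first 10 bases after each joint in capitals.
Sftpc circle: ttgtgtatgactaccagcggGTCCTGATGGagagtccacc
Sftpc linear: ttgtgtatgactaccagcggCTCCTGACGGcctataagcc
Of these 10 bases, 8 are the same in the circular and the linear junction. Among 11384 other circles for which such windows exist, 0.553% match at 8 or more of 10 bases.

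The Slc34a2 circle, at chr5:53064000-53067601 on the plus strand, starts 151 bases into exon 7 and ends 35 bases into exon 10, so neither end is an exon boundary. Capitals mark a run of 7 bases that stands both at the end of the circle and just before its start in the linear transcript.
Slc34a2 circle: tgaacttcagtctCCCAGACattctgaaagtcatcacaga
Slc34a2 linear: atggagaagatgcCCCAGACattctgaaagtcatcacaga
Such a repeat, of at least 6 bases, was found in 2.55% of the 11390 other circles with both ends in exons. The Sftpb circle, at chr6:72312353-72314371 on the plus strand, runs from the start of exon 9 to the last base of the annotated transcript in exon 11. Capitals mark the motif AATAAA, the usual polyadenylation signal, ahead of that last base. The line does not mark where the joint lies.
Sftpb circle: AATAAAgaatgggaacatggatgtgaacag
Of the 11390 other circles with both ends in exons, 4 end at the last base of their transcript. The start of the Sftpc circle, both ends of the Slc34a2 circle and the end of the Sftpb circle are not splice sites of the transcripts used. Whether these junctions come from circular RNA was not tested.

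**Figure D1:**
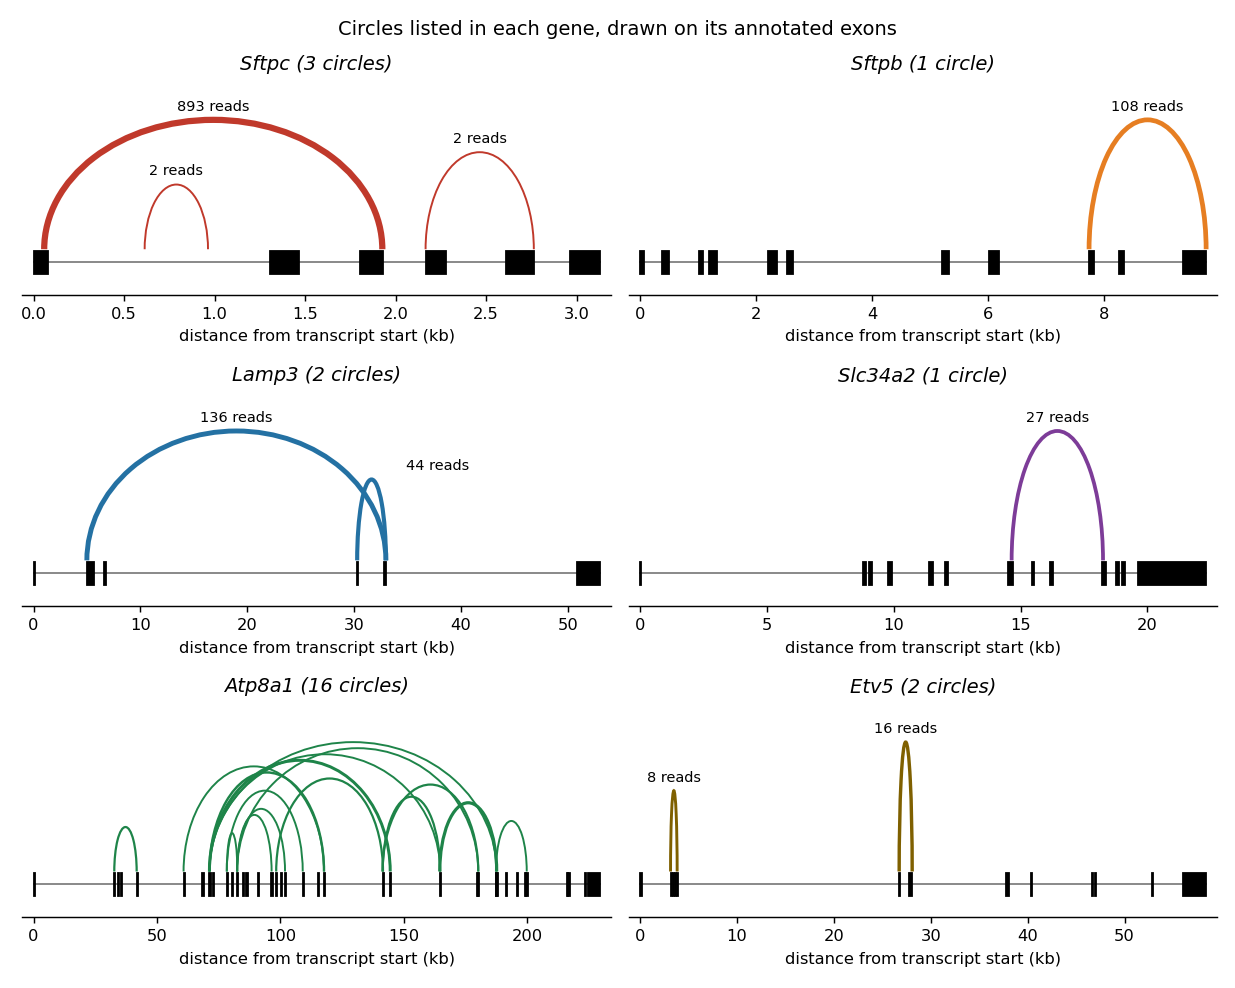
Circles of each gene on the exons (black boxes) of 1 annotated transcript, against the distance from its start in kb; each arc joins the ends of a circle, is thicker with more junction reads over the 4 libraries, and carries that number except for Atp8a1, and arc height has no meaning. The Sftpc circle of 893 reads starts inside exon 1, the Sftpb circle ends at the end of the transcript, and Atp8a1 holds 16 overlapping circles.

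Together the 6 genes had 2 junction reads at the pseudoglandular stage, 34 at the canalicular stage, 477 at the terminal sac stage and 778 at the alveolar stage. These are 0.00770% (interval 0.000932 to 0.0278), 0.109% (0.0754 to 0.152), 1.32% (1.20 to 1.44) and 2.75% (2.56 to 2.94) of all listed junction reads. The 4 intervals do not overlap, but they cover counting error only and each stage has 1 library. Of the terminal sac and alveolar reads, 80.5% and 84.3% came from 4 circles with few alignment patterns or repeated ends, described below. Their reads may not be independent, so the intervals can be too narrow. In whole lung, more type 2 cells and more RNA per cell cannot be told apart. The libraries hold between 25983 and 36156 listed junction reads, a circle needs 2 reads to be listed, and between 37.4% and 41.5% of a library's circles have exactly 2, so a circle that is not listed may still have reads.

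The genes followed different courses. Sftpc was not listed in the pseudoglandular and canalicular libraries, had 376 junction reads in the terminal sac library and 521 in the alveolar. Sftpb and Slc34a2 were listed in the alveolar library alone, with 108 and 27 junction reads. Lamp3 went from no listed read to 6, 64 and 110 reads in order of stage. Atp8a1 had 2, 10, 31 and 12 reads and Etv5 had none listed, 18, 6 and none listed. Sftpc, Sftpb, Lamp3 and Slc34a2 were therefore at their highest in the alveolar library, Atp8a1 in the terminal sac and Etv5 in the canalicular.

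**Figure D2:**
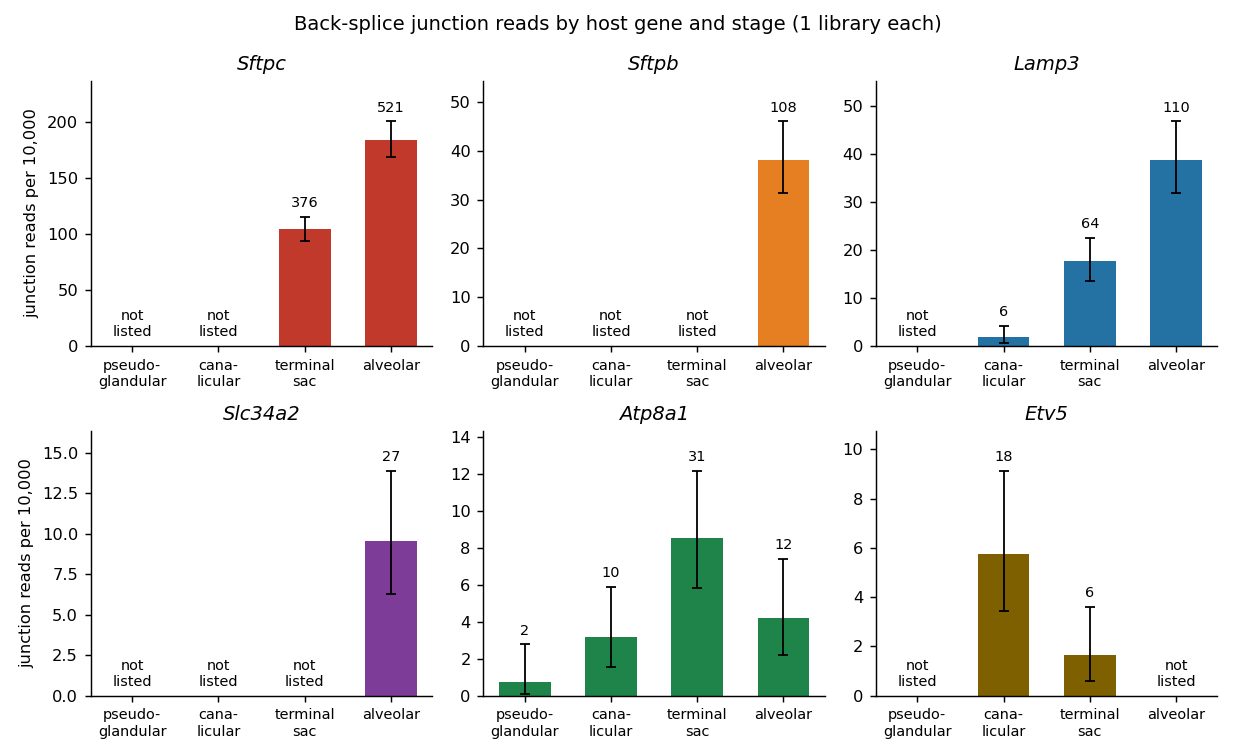
Junction reads per 10,000 listed junction reads of each host gene (bars, with Clopper-Pearson 95% intervals) in the 4 libraries, with the number of reads above each bar and a scale of its own in each panel. Sftpc, Sftpb, Lamp3 and Slc34a2 are highest in the alveolar library, Atp8a1 peaks at 31 reads in the terminal sac and Etv5 at 18 in the canalicular.

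For Sftpc (ENSMUSG00000022097, chr14:70520949-70524081, minus strand), 893 of 897 junction reads belonged to the circle from inside exon 1 to exon 3. It gave 372 reads in the terminal sac library, 103 per 10,000 junction reads (interval 92.7 to 114), and 521 in the alveolar, 184 per 10,000 (169 to 200). A circle of exons 4 to 5 (chr14:70521317-70521915) had 2 reads and a circle within intron 1 (chr14:70523117-70523467) had 2, both in the terminal sac library. Non-junction reads at the ends of the main circle numbered 215541 and 154593, the highest of any listed circle in either library. The junction ratio was accordingly low, at 0.344% (0.310 to 0.381) and 0.670% (0.614 to 0.729). Among the circles of the same library, 4.48% had a lower deposited ratio in the terminal sac library and 13.1% in the alveolar. Deposited ratios are rounded, so these shares are approximate and can count circles of nearly the same ratio as lower.

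The single Sftpb circle (ENSMUSG00000056370, gene at chr6:72304610-72314371) had 108 alveolar junction reads, 38.1 per 10,000 (31.3 to 46.0), against 16650 non-junction reads. Its junction ratio was 1.28% (1.05 to 1.54). The weight of 2 in this ratio takes a linear transcript to be counted at both ends. The annotated transcript stops at the end of this circle, so the ratio may be too high beside those of the other members. Once spliced the circle is 554 bases long, of which 141 are coding. Because the files give non-junction reads for listed circles only, they hold no linear value for Sftpb in the other 3 libraries. The same holds for Slc34a2 (ENSMUSG00000029188, chr5:53038081-53071664, plus strand), whose 297-base circle had 27 alveolar junction reads, 9123 non-junction reads and a ratio of 0.588% (0.388 to 0.854).

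Lamp3 (ENSMUSG00000041247, chr16:19653378-19706375, minus strand) had 2 circles with a common donor. The circle of exons 2 to 5 (chr16:19673391-19701382), 1053 coding bases long, had 6 junction reads in the canalicular library, 47 in the terminal sac library and 83 in the alveolar library. The circle of exons 4 to 5 (chr16:19673391-19676080), 229 coding bases long, was listed with 17 reads in the terminal sac library and 27 in the alveolar. It made up 26.6% (16.3 to 39.1) of Lamp3 junction reads in the terminal sac library and 24.5% (16.8 to 33.7) in the alveolar, shares whose intervals overlap widely. The intron before exon 4 spans 23532 bases, that before exon 2 spans 4833, and the shared intron after exon 5 spans 17870. The medians over 10001 other circles with both ends at exon boundaries are 6886 bases before and 5149 after.

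Atp8a1 (ENSMUSG00000037685, chr5:67618140-67847434, minus strand) differed from the other members in having many circles with few reads. Its 55 junction reads were spread over 16 circles of 360 to 2293 coding bases, all with both ends at exon boundaries and all within exons 2 to 33 of 37. The circles took in 3 to 22 exons each, 4 of them starting at exon 8 and 3 at exon 12. The libraries listed 1, 3, 8 and 5 of them in order of stage, and 15 of the 16 were listed in 1 library only. The circle of exons 25 to 29 (chr5:67659870-67682930) had 12 reads, all in the terminal sac library, and that of exons 8 to 24 (chr5:67702980-67776198) had 5 in the terminal sac library and 4 in the alveolar. The other 14 circles had 2 to 4 reads each.

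Both Etv5 circles (ENSMUSG00000013089, chr16:22381309-22439719, minus strand) were listed in the canalicular and terminal sac libraries. The circle of exons 6 to 7 (chr16:22411633-22412974), 418 coding bases long, had 14 and then 2 junction reads. The circle of exons 2 to 5 (chr16:22435877-22436560), 310 bases long, had 4 in each. In raw reads the change in the gene's sum therefore lay in the circle of exons 6 to 7. Whether the courses of the Etv5 circles differ was not tested, and their reads are few.

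To ask how these genes differed between stages, junction reads were summed per host gene and compared as shares of all listed junction reads. A gene needed 10 or more reads in the pair of libraries. Calls of higher or lower required a ratio of shares of at least 2-fold and an exact conditional binomial interval that excluded 1. Where a library did not list a gene or circle, 3 reads were put in its place, and its fold is then a lower bound that holds if that library had 3 or fewer reads. A member that 1 library of a pair did not list reached the minimum through the other library alone, so the counts of members called below are a description and support nothing by their number. The comparisons share libraries, so they are not independent of each other.

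For the alveolar against the pseudoglandular library, all 5 members that could be measured were higher, where 12.9% of 1084 host genes were called higher and 16.7% lower. The 5 member circles measured were higher too, against 12.2% of 933 circles higher and 17.4% lower. Apart from Atp8a1 none of these genes was listed in the pseudoglandular library, so they reached the minimum of 10 reads through the alveolar library alone. Sftpc, with 521 reads against none listed, was at least 159-fold higher, Lamp3 at least 33.6-fold, Sftpb at least 33.0-fold and Slc34a2 at least 8.25-fold. Atp8a1 went from 2 to 12 reads, a 5.50-fold higher share (interval 1.23 to 50.6). Etv5 could not be measured in this pair. The median log2 ratio was 5.05 over the 5 members, with unlisted genes at their bound, and -0.12 over all host genes tested.

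For the canalicular against the pseudoglandular library, Etv5 was at least 4.99-fold higher, with 18 reads, and Atp8a1, from 2 to 10 reads, had a ratio of 4.16 (0.887 to 39.1) that passed no call. These were the 2 members measured, and 8.87% of 1127 host genes were called higher and 11.3% lower. The Etv5 circle of exons 6 to 7, the 1 member circle measured, was at least 3.88-fold higher, against 8.16% of 1017 circles called higher and 9.83% lower. When libraries were scaled by listed non-junction reads Atp8a1 was also called, at 4.70-fold.

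From the canalicular to the terminal sac library, 3 of 4 measured members were higher and 1 lower, where 12.4% of 1236 host genes were called higher and 12.1% lower. Of 5 member circles 3 were higher and 1 lower, against 8.94% and 11.2% of 1208 circles. Sftpc, with 376 reads against none listed, was at least 108-fold higher. The other 3 members measured were listed in both libraries. Lamp3, with 64 against 6, was 9.21-fold higher (4.01 to 26.0). Its exons 2 to 5 circle was 6.76-fold higher (2.89 to 19.4) and its exons 4 to 5 circle at least 4.89-fold. Atp8a1 was 2.68-fold higher (1.28 to 6.12), and 1.67-fold without its exons 25 to 29 circle and other circles with few alignment patterns or repeated ends, which ends that call. Etv5 was 3.48-fold lower (1.32 to 10.7), through its exons 6 to 7 circle, which was 8.11-fold lower (1.86 to 73.5). When the libraries were scaled by the median ratio of non-junction reads, Etv5 stood at a ratio of 0.427 and was not called.

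From the terminal sac to the alveolar library, 3 of 5 measured members were higher and 1 lower, where 12% of 1197 host genes were called higher and 12.4% lower. Of 6 member circles 4 were higher and none lower, against 10.5% and 11% of 1123 circles. Sftpb, with 108 reads against none listed, was at least 45.9-fold higher and Slc34a2, with 27 against none listed, at least 11.5-fold. Both were measured through the alveolar library alone. Lamp3 was 2.19-fold higher (1.60 to 3.03). Both of its circles were called, the one of exons 2 to 5 at 2.25-fold (1.56 to 3.30) and the one of exons 4 to 5 at 2.03-fold (1.07 to 3.96). Sftpc had a ratio of 1.77 (1.55 to 2.02), an interval above 1 but a ratio under the 2-fold threshold. Atp8a1 was 2.02-fold lower (1.01 to 4.33), at the edge of the threshold, and passed no call at a ratio of 0.516 with non-junction scaling, 0.539 with the median of ratios and 0.863 without few-pattern and repeat-end circles. When scaled by the median ratio of non-junction reads, Lamp3 passed no call as a gene, at 1.72-fold, nor in its circles, at 1.77-fold for exons 2 to 5 and 1.59-fold for exons 4 to 5. With that scale the Atp8a1 circle of exons 25 to 29, with 12 terminal sac reads and none listed in the alveolar library, was called lower. With the median of ratios over circles, the Sftpc circle was called higher at 2.03-fold.

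Linear reads at the ends of the Lamp3 exons 2 to 5 circle were higher in the terminal sac than in the canalicular library, as the circle was. In the alveolar library they were lower again while the circle was higher. For circles listed in both libraries of a pair, non-junction reads were compared after scaling to their total over all such circles. At the ends of the Lamp3 exons 2 to 5 circle there were 1854 non-junction reads in the canalicular library, 6251 in the terminal sac library and 2956 in the alveolar library. This is 4.22-fold higher at the former step, above 99.6% of 1838 circles, and 2.13-fold lower at the latter. At the ends of the exons 4 to 5 circle they went from 3995 to 2066 between the terminal sac and alveolar libraries, 1.95-fold lower, and at those of Sftpc they were 1.41-fold lower. Per 10,000 of all listed non-junction reads, a total that depends on which circles each library lists, these 3 differences between the terminal sac and alveolar libraries were smaller. Sftpc stood at 567 and then 542. Lamp3 stood at 16.45 and then 10.36 for exons 2 to 5, and at 10.51 and then 7.242 for exons 4 to 5. Etv5 non-junction reads went from 1823 to 579 at exons 6 to 7 and from 2224 to 698 at exons 2 to 5 between the canalicular and terminal sac libraries, 2.51-fold and 2.54-fold lower. Those of Atp8a1 at exons 8 to 24 went from 1525 to 965 between the terminal sac and alveolar libraries, 1.59-fold lower.

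Between the terminal sac and alveolar libraries, the share of circular reads was thus higher and that of linear reads lower for Sftpc and Lamp3. Over all listed non-junction reads, the linear share of Sftpc was only slightly lower. The terminal sac total behind that share includes 161232 reads at the Sftpc circle of exons 4 to 5, which the alveolar library does not list. The junction ratio was higher in the alveolar library for all 3 circles concerned. It went from 1.48% (1.09 to 1.96) to 5.32% (4.27 to 6.53) for Lamp3 exons 2 to 5, an odds ratio of 3.72 (2.60 to 5.32). For Lamp3 exons 4 to 5 it went from 0.844% (0.493 to 1.35) to 2.55% (1.69 to 3.67), an odds ratio of 3.04 (1.66 to 5.55). For Sftpc the odds ratio was 1.95 (1.71 to 2.23). Its 372 and 521 junction reads had only 8 and 16 alignment patterns (described below), so that interval can be too narrow. Among 1000 circles listed in both libraries with 10 or more junction reads, 4.3% had an odds ratio interval above 1 and 22% below 1, with a median odds ratio of 0.709. The pair of Lamp3 circles share a gene and a donor and are not independent. For Atp8a1 exons 8 to 24 it was 1.29 (0.371 to 4.50), with an interval that includes 1. From the canalicular to the terminal sac library the intervals of all 3 member circles included 1, with odds ratios of 2.17 (0.954 to 4.93) for Lamp3 exons 2 to 5, 0.542 (0.141 to 2.08) for Etv5 exons 6 to 7 and 3.19 (0.860 to 11.8) for Etv5 exons 2 to 5. In that pair 23.4% of 1089 circles had an interval above 1 and 2.85% below.

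**Figure D3:**
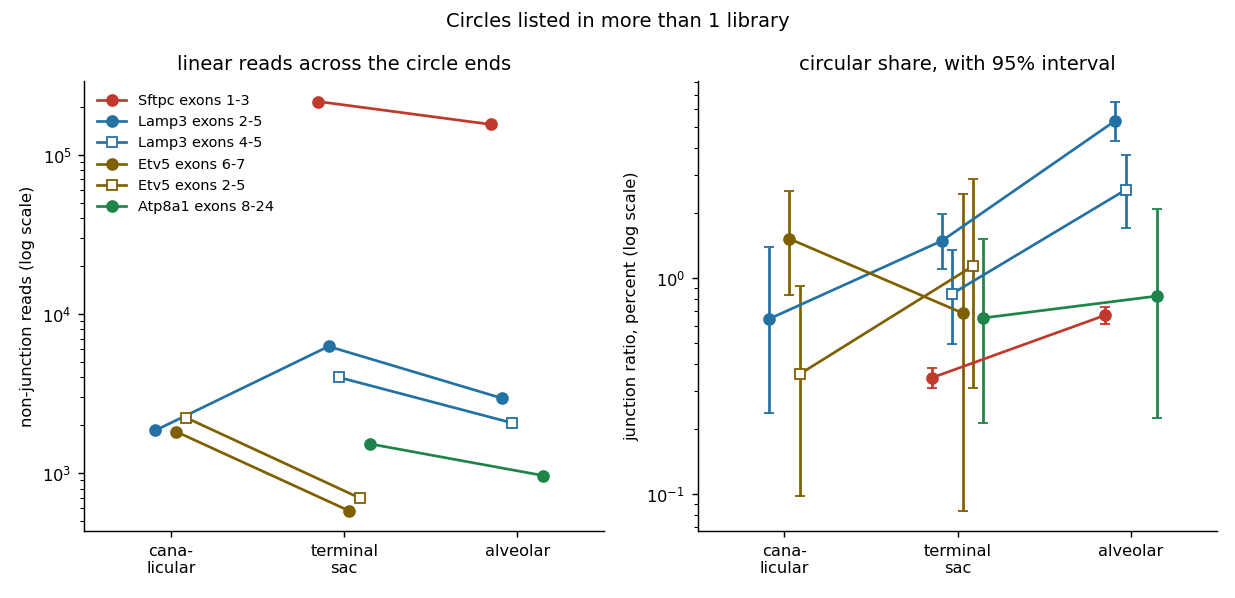
Non-junction reads at the ends of each circle (left) and its junction ratio in percent with a 95% interval (right), both on log scales, for the member circles listed in more than 1 library; points of a stage are set apart sideways for legibility. From terminal sac to alveolar the raw linear reads of Sftpc and Lamp3 go down while their ratios go up, to 5.32% for Lamp3 exons 2 to 5.

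The deposited alignment patterns set Sftpc and Sftpb apart from Lamp3. The files give 3 numbers per circle, the distinct alignment patterns among its junction reads with the clipped part on the left, on the right and on both sides. A read's pattern depends on where along the read the junction falls. For Lamp3 exons 2 to 5 the numbers were 3, 2 and 0 from 6 reads in the canalicular library, 26, 25 and 0 from 47 in the terminal sac and 32, 29 and 0 from 83 in the alveolar. For Lamp3 exons 4 to 5 they were 13, 5 and 8 from 17 reads and 16, 5 and 12 from 27. For Sftpc they were 7, 0 and 1 from 372 reads and 15, 0 and 1 from 521, and for Sftpb 3, 1 and 1 from 108. For Slc34a2 they were 1, 11 and 1 from 27 reads.

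Patterns grow with reads, so each circle was set against the other circles of its library whose junction reads were within 20% of its own, a window chosen after seeing the data. The Lamp3 circle of exons 2 to 5 had 51 patterns in the terminal sac library, where 59 such circles had a median of 39 and a range of 6 to 55. In the alveolar library its 61 patterns lay near the median of 58.5 over 12 such circles. The Lamp3 circle of exons 4 to 5, with 26 patterns, stood above all 164 such circles of the terminal sac library, which reached 24. With 33 alveolar patterns it was passed by 3 of 61.

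The Sftpb circle had 5 patterns against 22 to 105 in 8 such circles. The Slc34a2 circle had 13 against a median of 24 over 61, of which 3 had fewer. Few circles were as deep as that of Sftpc: 2 in the terminal sac library had 116 and 156 patterns, against its 8, and 1 in the alveolar had 138, against its 16. Over all 27 other terminal sac circles with 100 or more reads the range was 6 to 156 patterns with a median of 82. Of these, 2 had 16 or fewer and 1 had no right-clipped pattern. The 16 such circles of the alveolar library ranged from 22 to 140 with a median of 102.5, and each had a right-clipped pattern. The share of reads with another read of the same circle within 500 position units on the same flow-cell tile was 9.14% and 7.49% for Sftpc and 5.56% for Sftpb. Over other circles with 100 or more reads it was 8.84% in the terminal sac library and 9.41% in the alveolar.

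**Figure D4:**
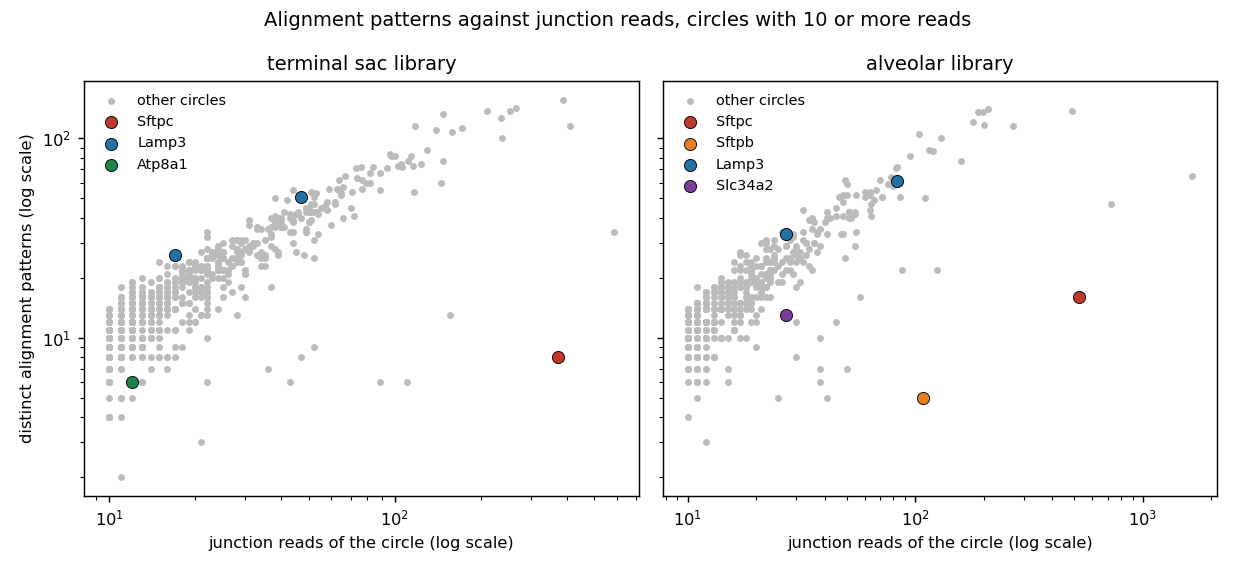
Distinct alignment patterns against junction reads for circles with 10 or more reads in the terminal sac and alveolar libraries (log scales), with other circles in grey. Lamp3 circles lie within or at the upper edge of the grey band, whereas Sftpc with 8 and 16 patterns and Sftpb with 5 lie below most of it.

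Among the members the circles of Sftpb, Sftpc (from inside exon 1), Slc34a2 and Atp8a1 exons 25 to 29 had few patterns for their reads (under the 5th percentile of the 200 circles nearest in reads, in a library with 10 or more reads) or ends that share a repeated run of at least 6 bases. Sftpc stood at percentile 2 in the terminal sac library but at 11 in the alveolar, which is not under the 5th. Slc34a2, at 11.5 in the alveolar library, was included for its repeat alone. These 4 circles held 80.5% of the members' terminal sac reads and 84.3% of their alveolar reads. Over all libraries 365 of 13499 circles were of this kind. Without them, the 6 genes still held 0.00796% (0.000964 to 0.0288) of pseudoglandular junction reads, 0.113% (0.0783 to 0.158) of canalicular ones, 0.272% (0.219 to 0.333) at the terminal sac stage and 0.488% (0.405 to 0.582) at the alveolar stage. The intervals again do not overlap, with the same limit of 1 library per stage. Lamp3 gave 64 of the remaining 93 terminal sac reads and 110 of the remaining 122 alveolar reads.

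A list of 50 further genes of surfactant production and type 2 cells, covering lipid synthesis, transcription factors, receptors and lysosome-related organelles, was examined in the same way. Its 22 listed hosts held 111, 113, 185 and 91 junction reads in order of stage. For the alveolar against the pseudoglandular library 1 of 4 measured hosts was higher and 1 lower, with a median log2 ratio of 0.17. From the pseudoglandular to the canalicular library none of 3 was higher and 1 was lower (median -0.26). From the canalicular to the terminal sac library 1 of 6 was higher and none lower (median 1.19, against 0.02 over all host genes). From there to the alveolar library none of 6 was higher and 1 was lower (median -0.97, against -0.23). Cebpa gave both of these calls and reached the minimum through the terminal sac library alone, as Lrrk2 did against the canalicular library. Such unlisted hosts enter the medians at their bound, so these counts and medians are a description only. Over all host genes 12.9%, 8.87%, 12.4% and 12% were called higher in these 4 comparisons, in the same order. Lower calls were 16.7%, 11.3%, 12.1% and 12.4%. Between the pseudoglandular and alveolar libraries Adgrf5, an adhesion receptor that regulates surfactant levels, went from 2 to 11 reads (5.04-fold, 1.10 to 46.8). Ap3b1, a subunit of the AP-3 complex of lysosome-related organelles, went from 31 to 8 reads and was 4.23-fold lower (1.90 to 10.6). Fgfr2, an FGF receptor of lung epithelium, had most reads of the list, with 46, 78, 98 and 41. It passed no call at any step, and its alveolar share was 1.87-fold under that in the terminal sac library (1.29 to 2.77). Cebpa, a transcription factor of type 2 cell maturation, had 15 reads in the terminal sac library and was not listed in the others. It was called higher there than in the canalicular library (at least 4.32-fold) and lower in the alveolar (at least 3.92-fold). Nfatc3 (10, 10, 15 and 17 reads) and Lrrk2 (4, none listed, 12 and 4) were measured and passed no call. Erbb4, with 8 pseudoglandular reads, and Acaca, with 4 pseudoglandular and 3 terminal sac reads, stayed under the minimum of 10. Sftpa1 had 2 reads in all, and Sftpd, Abca3, Nkx2-1 and Foxa2 were not listed.

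Hosts that mark other lung cells were counted too. All 8 genes of the endothelial list were listed hosts, unlike in the other lists given here, and they held 12, 28, 85 and 137 junction reads in order of stage. Of these Prex2 alone gave 2, 5, 55 and 63, whereas Flt1 gave 4, 4, 2 and 2. The lists were chosen with earlier results of these data known, so their counts cannot be set against each other. The 4 listed of 12 alveolar type 1 markers held 8, 5, 18 and 42, with Ager, Aqp5, Hopx and Pdpn not listed. The 3 listed of 12 general epithelial markers (Esrp1, Grhl2 and Pkp2) held 9, 21, 13 and 2, with Epcam and Cdh1 not listed. The 2 listed of 10 airway markers (Dnah9 and Ttc29) held 11 terminal sac and 6 alveolar reads, with Scgb1a1 and Foxj1 not listed. The 5 listed of 10 macrophage and dendritic cell markers held 6, 37, 35 and 11. For the alveolar against the pseudoglandular library 3 of 4 measured endothelial hosts and 1 of 3 alveolar type 1 hosts were called higher, and no host of the other lists could be measured. From the pseudoglandular to the canalicular library the 1 endothelial and both macrophage and dendritic cell hosts measured were called higher, and neither of 2 epithelial hosts was called. From the canalicular to the terminal sac library 1 of 2 endothelial hosts was called higher, 1 of 2 epithelial hosts lower, and none of 3 macrophage and dendritic cell hosts or of 1 alveolar type 1 host was called. From there to the alveolar library 3 of 4 endothelial and 1 of 3 alveolar type 1 hosts were called higher, 1 of 2 macrophage and dendritic cell hosts lower, and neither the 1 epithelial nor the 1 airway host measured. The shares called over all host genes are those given with the pathway list. A host that 1 library of a pair did not list reached the minimum through the other alone. The part of these marker hosts in the courses of the 6 genes was not tested.

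Of 501 other host genes with 50 or more junction reads, those with a course most like Sftpc over the 4 libraries were Prex2, Dennd4a and Vav3. The measure is the total variation distance between the genes' shares scaled to sum to 1 over the 4 libraries, where 0 is the same course, and it was 0.0803, 0.144 and 0.175. Prex2, which is also among the 8 endothelial hosts, had 2, 5, 55 and 63 reads in order of stage. For Lamp3 the nearest were Prex2, Efnb2 and Macf1, at 0.106, 0.144 and 0.151.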

How the data were processed

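Total RNA of whole lung was sequenced, 1 library for each of 4 stages, and the deposited files list circRNAs per library. Per the submitters' processing notes the build was mm10, and the tools, with no roles given, were BWA, HISAT2 2.0.5, cutadapt, HTSeq and StringTie. The column names match the caller CIRI, and its filters are not given in the sources used here. Per the file headers, both kinds of reads are raw counts per circle. The authors' junction ratio is a fraction, and recomputing it from the counts left 0 mismatches. Alignment-pattern numbers were used as deposited. The members, lists and most settings were chosen with earlier results of these data known.

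Hosts were taken from the deposited identifiers, and 4590 of the 4647 were found in GENCODE M21, which uses that build. Exons and sequences came from M21 transcripts. No listed junction read of the 6 genes is listed under another circle. Ratios of shares carry exact conditional binomial intervals, single shares Clopper-Pearson intervals and odds ratios Woolf's interval with 0.5 added to each count. Calls were tested on simulated data. All 6 members are named, with each circle of 5 or more reads described singly. Up to 8 hosts of the pathway list with most reads are named, with a few more chosen after their values were seen. Marker genes given as not listed are examples. Alternatives were another library scale, read minimum, fold threshold and circle set, merged ends and hosts by position. Python 3.11.15, numpy 2.4.6, pandas 2.3.3, scipy 1.17.1 and matplotlib 3.10.9 were used.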

Additional observations from a re-analysis of the deposited data

How the results depend on the processing

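No paired analysis was possible because each stage has 1 library. The counts stayed within 1.5-fold of their reported values in 73 of 88 combinations of result and alternative, and no host-gene ratio changed direction. Merging neighbouring ends could not change the members, because no member circle has both ends that close to those of another. A count can also stay within 1.5-fold while a call is lost. Scaled by the median non-junction ratio, 3 genes in place of 4 were called from the canalicular to the terminal sac library, without Etv5. Counting only genes listed in both libraries left 1 called for the alveolar against the pseudoglandular library, 0 for the canalicular against the pseudoglandular and 2 for the alveolar against the terminal sac, since unlisted genes drop out by construction. The same setting left 2 circles from the canalicular to the terminal sac library and 2 for the alveolar against the terminal sac. Without few-pattern and repeat-end circRNAs the calls for the alveolar against the pseudoglandular library fell from 5 genes and 5 circles to 2 genes and 2 circles. That setting left 2 genes from the canalicular to the terminal sac library, and 1 gene and 2 circles for the alveolar against the terminal sac. Scaling by listed non-junction reads, with or without those of the 6 genes (the latter chosen after seeing the data), gave 2 called genes in place of 1 for the canalicular against the pseudoglandular library. With 20 or more reads required, 2 circles rather than 4 were called from the canalicular to the terminal sac library. At 3-fold 2 genes and 2 circles were called for the alveolar against the terminal sac. Scaling by the median non-junction ratio, also chosen after seeing the data, moved every log2 ratio by 0.35, 0.16, 0.57 and -0.35 in the order in which the comparisons are reported. No value could be had with 20 or more reads for the canalicular against the pseudoglandular library, nor for circles listed in both libraries of a pair that includes the pseudoglandular, because no member was left. Depth limits what can be said of circles that a library does not list, and of Etv5 and Atp8a1, which had 2 to 31 reads per library where listed.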
